A study of Mus musculus with 2 samples.

Results

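Histone genes were described in RNA sequencing libraries of mouse pancreatic islets, 1 from db/db and 1 from db/m mice. The members were the 67 protein-coding genes of the histone gene clusters whose symbols begin with Hist1 to Hist4, called replication histones here, and 10 genes outside those clusters, called histone variants, so 77 of the 44713 genes in the table. The rule uses symbols and gene class and no measured value. Both groups had a C57BL/6 background. The db/db library carries the genotype label Lepr-/-, the loss of the leptin receptor that makes these mice obese and diabetic, and the db/m library is labelled as wild type. The series was described as run in triplicate, and 1 library per group was analysed here. The labels state neither age nor sex, nor how many animals gave a library. The libraries were made after ribosomal RNA had been removed, and no selection for poly(A) tails is mentioned in the labels.

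Replication histones are made in bulk during S phase, when new DNA has to be packed into nucleosomes. Their genes have no introns and their messages end in a short stem-loop, bound by the protein SLBP, in place of a poly(A) tail. Variants are made throughout the cell cycle and in resting cells from ordinary polyadenylated messages, and they replace the replication forms in chromatin. Some cluster genes can also give polyadenylated messages, mainly in differentiated cells, and H2afx is known to give both kinds.

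Total counts were 16271129 in db/m and 18233695 in db/db. Levels are given as CPM, a gene's count relative to the size of its library, which was adjusted by a trimmed mean of M values (TMM), so that a single count weighs 0.0653 CPM in db/m and 0.0516 CPM in db/db. Ratios are db/db over db/m throughout. Their exact 95% intervals cover counting error only, and with a single library on each side no replicate error or p-value can be had. Defining markers of acinar cells, which secrete digestive enzymes, took 46.8% of the db/m counts and 44.7% of the db/db counts (10 genes), against 0.143% and 0.162% for 7 beta cell markers. Acinar markers thus far outweighed those of the labelled islets, and which cells the histone messages came from was not tested. In bulk tissue, fewer cells of a type and less RNA per cell cannot be told apart.

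The upstream sequences below are shown because the 3 abundant linker histone genes of the replication group were all lower in the db/db library, while the variants beside them differed less. Each window holds the 130 bases before a transcript start, 5′ to 3′ on the gene's strand, from RefSeq on GRCm38.p6. Capitals mark matches, on either strand, to AAACACA (known from H1 promoters), to the CCAAT box, to the letters TATAAA of a TATA box and to the octamer ATTTGCAT. The replication windows are chr13:23738677-23738806 on the plus strand for Hist1h1c, chr13:23554902-23555031 on the plus strand for Hist1h1d, chr13:23622559-23622688 on the minus strand for Hist1h1e, chr3:96246555-96246684 on the plus strand for Hist2h3c1 and chr13:23562386-23562515 on the minus strand for Hist1h3e. Those of the variants are chr15:79028082-79028211 on the plus strand for H1f0 and chr11:116024505-116024634 on the minus strand for H3f3b. The H3f3b window precedes a start inside the annotated gene (chromosome 11, 116021961 to 116026039), which has 2 transcripts, and the other 6 windows end at the annotated start of their gene.
Hist1h1c: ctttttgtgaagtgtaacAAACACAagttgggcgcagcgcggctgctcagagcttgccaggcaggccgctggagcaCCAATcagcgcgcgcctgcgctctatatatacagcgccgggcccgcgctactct
Hist1h1d: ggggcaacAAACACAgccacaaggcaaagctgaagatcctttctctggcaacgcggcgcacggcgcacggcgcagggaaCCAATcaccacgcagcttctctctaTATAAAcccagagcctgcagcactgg
Hist1h1e: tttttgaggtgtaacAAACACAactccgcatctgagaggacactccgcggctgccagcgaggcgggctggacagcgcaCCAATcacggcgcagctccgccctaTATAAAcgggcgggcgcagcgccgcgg
Hist2h3c1: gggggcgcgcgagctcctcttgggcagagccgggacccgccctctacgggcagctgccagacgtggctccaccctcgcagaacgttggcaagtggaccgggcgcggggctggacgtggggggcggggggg
Hist1h3e: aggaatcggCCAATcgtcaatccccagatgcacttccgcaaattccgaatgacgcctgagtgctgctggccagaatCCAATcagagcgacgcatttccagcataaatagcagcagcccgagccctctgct
H1f0: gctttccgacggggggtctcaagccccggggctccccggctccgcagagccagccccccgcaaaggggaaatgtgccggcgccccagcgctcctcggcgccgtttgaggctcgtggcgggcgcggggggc
H3f3b: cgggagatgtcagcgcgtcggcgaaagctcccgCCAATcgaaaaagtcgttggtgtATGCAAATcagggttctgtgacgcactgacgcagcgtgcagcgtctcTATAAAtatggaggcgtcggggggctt

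Over the 250 bases before the start, AAACACA was present in 5 of 6 replication H1 genes, beginning 112 to 122 bases before the start, in 2 of 17 H2A and 2 of 16 H2B genes, in no H3 or H4 gene, and in 6.25% of 32851 upstream windows of all genes. CCAAT was present in 6 of 6 H1, 17 of 17 H2A, 16 of 16 H2B, 8 of 10 H3 and 3 of 12 H4 genes with a window, and in 33.8% of all windows. The octamer was found in 7 of 17 H2A and 7 of 16 H2B genes, in 0 of 6 H1, 0 of 10 H3 and 0 of 12 H4 genes and in 1.6% of all windows. Some H2A and H2B genes start close together on opposite strands, so the same site can count for both families. Octamers were shared by Hist1h2aa and Hist1h2ba, by Hist1h2ae and Hist1h2bg, and by Hist1h2ah and Hist1h2bk. The AAACACA of Hist1h2aa and Hist1h2ba was also the same site. Among the 9 variants with a window, CCAAT was found in 5, TATAAA in 1 (H3f3b), the octamer in 1 (H3f3b) and AAACACA in 1 (H3f3a). TATAAA was found in 29 of 61 replication genes and in 12.4% of all windows, and no 2 different motifs shared bases. These matches describe letters in the windows and were not tied to the counts.

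Replication histone messages were lower in the db/db library as a group. Their counts added up to 2261 in the db/m library (139 CPM before TMM scaling) and 1700 in the db/db library (93.2 CPM). The scaled sum was 1.68-fold lower in db/db (95% interval 1.58 to 1.79, ratio 0.594). Of the 67 genes, 21 had a mean of at least 1 CPM and could be compared one by one, and 9 of these were called lower, meaning at least 2-fold lower with an interval that excludes 1. That is 42.9% of the compared replication histones, where 4.04% of the 10300 compared genes of the whole table were called lower. None was called higher, against a background of 3.83%, and 7.87% of all compared genes were called in either direction. With total counts in place of TMM those shares were 2.69% lower and 5.48% higher. Ratios below 1 were found for 19 of the 21, against 47.6% of all compared genes, and the median log2 ratio was -0.79, against 0.02 over all compared genes. With total counts 16 of the 21 had ratios below 1, and these medians were -0.62 and 0.20. The same 9 genes were called lower with each of the 4 ways of scaling the libraries.

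**Figure D1:**
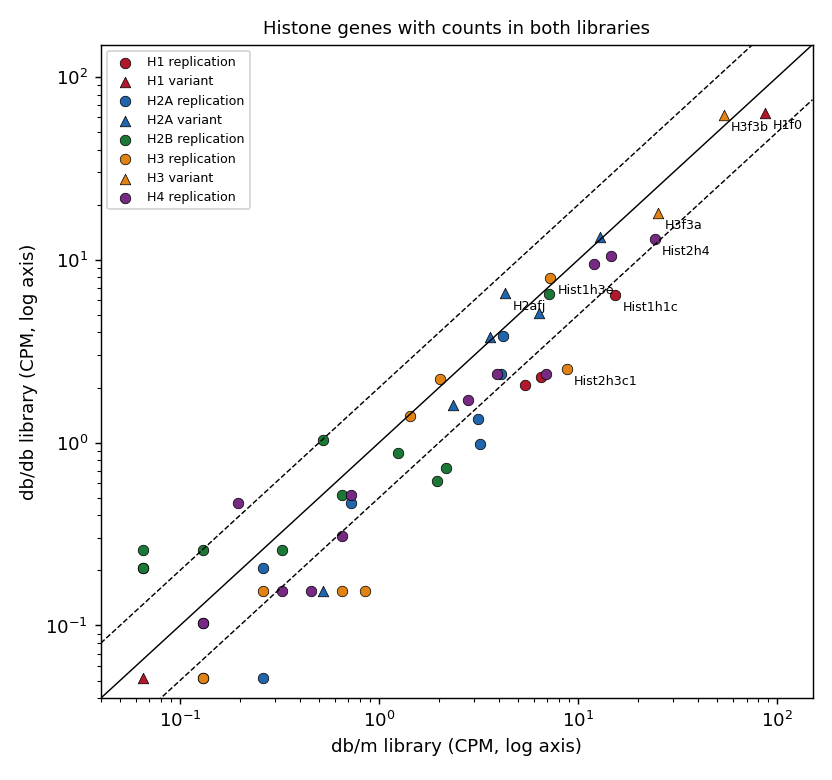
Scaled level of each histone gene with counts in both libraries, db/m on the horizontal and db/db on the vertical log axis, in CPM. Circles are replication histones, triangles are variants, colours are histone families, the solid line marks equal levels and the dashed lines 2-fold differences. H1f0 (86.7 and 63.7 CPM) and H3f3b (53.7 and 61.7 CPM) lie near the line of equality, whereas Hist2h3c1 (8.75 and 2.53 CPM) and Hist1h1c (15.3 and 6.4 CPM) lie below the lower dashed line.

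Linker histones of the replication group, which bind the DNA between nucleosomes, stood farthest below the db/m library. The 6 genes summed to 418 counts in db/m and 212 in db/db, a 2.49-fold difference (2.11 to 2.96), and all 3 that could be compared were called lower. Hist1h1c, which encodes the H1 subtype that predominates in many differentiated tissues (chromosome 13, 23738807 to 23739531, GRCm38.p6), had 235 and 124 counts and was 2.4-fold lower (1.92 to 3.01). For Hist1h1d the counts were 83 and 40, 2.63-fold lower (1.78 to 3.93). Hist1h1e had 99 and 44 counts and was 2.85-fold lower (1.98 to 4.16). The intervals of the 3 genes overlap each other, so no order among them could be read at this depth. Hist1h1a and Hist1h1b had 0 counts in db/m and 2 in db/db, and the testis-specific Hist1h1t had 1 and 0. Within the libraries, 0.227 H1 counts were found per core histone count in db/m and 0.142 in db/db (odds ratio 0.628, 0.523 to 0.754), a contrast that no scaling between libraries can move.

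Replication genes for H2A, a core histone that pairs with H2B, summed to 250 counts in db/m and 181 in db/db (18 genes), 1.75-fold lower in db/db (1.44 to 2.13). Hist2h2aa2 had 49 and 19 counts and was 3.26-fold lower (1.89 to 5.87), and Hist3h2a had 48 and 26 counts and was 2.34-fold lower (1.42 to 3.92). The span of Hist3h2a overlaps the protein-coding gene Trim17 in the annotation. Hist2h2aa1, with 63 and 46 counts, stood at a ratio of 0.577 (0.386 to 0.857), within the 2-fold limit. Hist2h2ac, the H2A gene with most counts (64 and 74), had a ratio of 0.914 (0.645 to 1.3). The members of this family therefore did not share 1 ratio. In windows lying mostly before their starts, 249 of 260 aligned bases of Hist2h2aa1 and Hist2h2aa2 were identical. Their transcripts were not compared, and how reads were split between these genes is uncertain. Of the other 14 H2A genes, 6 had no count and 8 had at most 11 counts in a library.

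H2B genes showed no difference in their raw sum, with 226 counts in each library (18 genes), which after scaling is a ratio of 0.79 (0.654 to 0.955). Hist1h2bc, a gene known to give polyadenylated messages too, held more of these counts than any other H2B gene (109 and 126) and had a ratio of 0.914 (0.701 to 1.19). Hist2h2bb (33 and 14 counts, 2.98-fold lower, 1.55 to 6.03) and Hist1h2be (30 and 12 counts, 3.16-fold lower, 1.57 to 6.78) were called lower, and the span of Hist1h2be overlaps a non-coding gene in the annotation. Hist2h2be had 19 and 17 counts, a ratio of 0.707 (0.345 to 1.44). Hist1h2bg went the other way with 8 and 20 counts, but its interval of 0.834 to 5.19 includes 1. Hist1h2bh, Hist1h2bk, Hist1h2bl, Hist1h2bm and Hist1h2bp also had more counts in db/db, at most 5 each. Hist1h2bb, Hist1h2bf, Hist1h2bj and Hist1h2br had fewer, with at most 3 in a library.

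Replication H3 genes divided into a lower and an even set. The family summed to 338 counts in db/m and 286 in db/db (12 genes), a ratio of 0.669 (0.569 to 0.785), whereas the median log2 ratio of its 4 compared genes was 0.04. Hist2h3c1 (chromosome 3, 96246685 to 96247348, GRCm38.p6) had 134 and 49 counts and was 3.46-fold lower (2.48 to 4.9). Hist2h3c2 had 13 and 3 counts and fell under the CPM limit. In windows lying mostly before the starts of Hist2h3c1 and Hist2h3c2, 284 of 285 aligned bases were identical, and their transcripts were not compared. Hist1h3e, with 111 and 154 counts, stood at 1.1 (0.853 to 1.41), Hist1h3f, with 31 and 43 counts, at 1.1 (0.675 to 1.8) and Hist2h3b, with 22 and 27 counts, at 0.97 (0.532 to 1.79). The pair Hist2h3c1 and Hist2h3c2, set against the pair Hist1h3e and Hist1h3f, gave an odds ratio of 0.256 (0.17 to 0.38). These pairs were chosen after their values were seen. The remaining 7 H3 genes had between 0 and 10 counts in each library, among them Hist1h3a with 10 and 3 and Hist1h3d with 0 and 3.

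H4 genes, which all encode the same core histone protein, held the most replication histone counts, 1029 in db/m and 795 in db/db (13 genes). Their sum was 1.64-fold lower in db/db (1.49 to 1.8). Hist2h4 led the whole replication group with 370 and 252 counts and stood at a ratio of 0.538 (0.457 to 0.633), just inside the 2-fold limit. Per kilobase of annotated span it reached 62.9 CPM in db/m and 33.9 CPM in db/db, the highest level per length among the 60 cluster genes for which one was computed, 5 genes with several transcripts, Hist2h2be with its span of 2667 bases and the unmatched Hist1h2ap being left out. Hist1h4h followed with 224 and 202 counts (ratio 0.713, 0.586 to 0.866) and 33.6 and 24 CPM per kilobase. Hist1h4d had 183 counts in both libraries, a ratio of 0.79 (0.64 to 0.975) once the sizes of the libraries are taken into account. Of the 6 compared H4 genes, Hist1h4n alone was called lower, with 105 and 46 counts (2.89-fold, 2.02 to 4.18). Hist4h4 (60 and 46 counts) stood at 0.606 (0.403 to 0.905) and Hist1h4c (43 and 33 counts) at 0.607 (0.373 to 0.977). All 6 compared H4 genes had intervals below 1 with TMM, but with total counts those of Hist1h4c, Hist1h4d and Hist4h4 reached 1.1, 1.1 and 1.02.

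**Figure D2:**
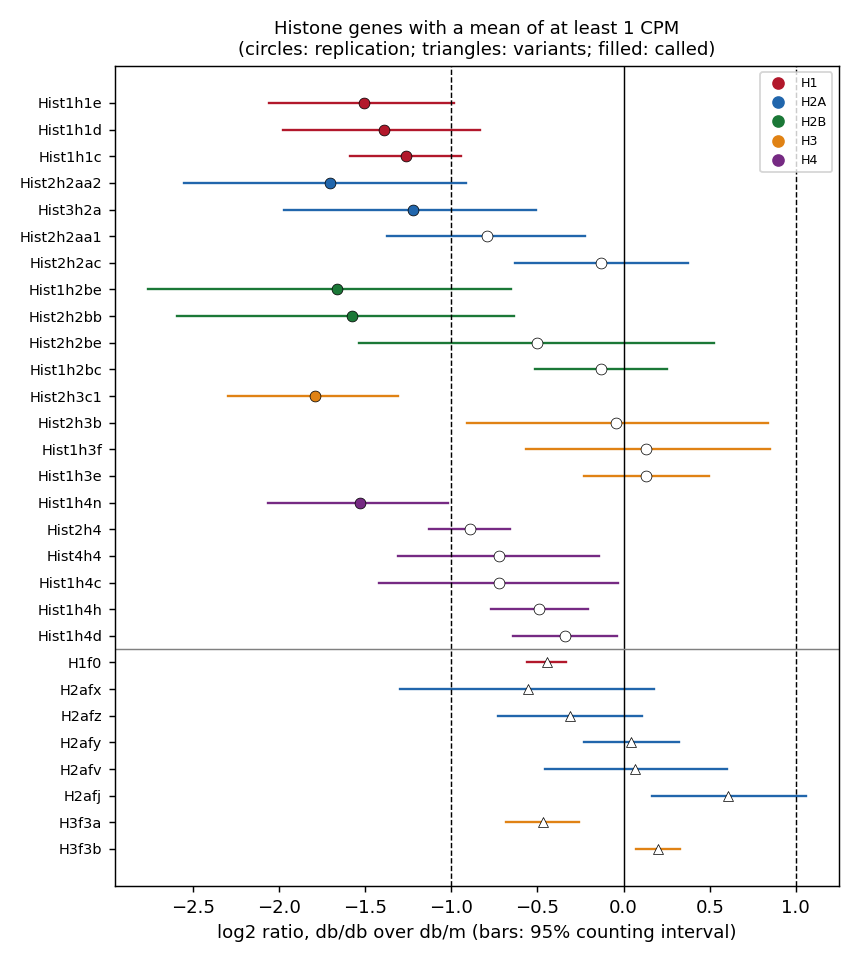
Log2 ratio of db/db over db/m for the 21 replication histones (circles, above the grey line) and 8 variants (triangles) with a mean of at least 1 CPM, with 95% counting intervals. Colours are families, filled symbols are called genes and dashed lines mark 2-fold. The 9 filled circles, 3 of them H1 genes, all lie left of the lower 2-fold line, and no triangle is filled.

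Most cluster genes were near or under detection. In both libraries 8 had 0 counts (Hist1h2aa, Hist1h2ag, Hist1h2ah, Hist1h2ai, Hist1h2an, Hist1h2ap, Hist1h2ba and Hist3h2ba), of which Hist1h2aa and Hist1h2ba are known for expression in the testis. A further 38 genes lay under the CPM limit with at most 20 counts in a library. Together the 46 genes under the limit held 146 counts in db/m and 123 in db/db, a ratio of 0.666 (0.52 to 0.852). Counts were concentrated in few genes, since the 5 with most counts (Hist2h4, Hist1h4h, Hist1h4d, Hist1h1c and Hist1h3e) took 49.7% of the replication histone counts in db/m and 53.8% in db/db. Levels in db/m and db/db ranked the 21 compared replication histones alike (Spearman 0.888 across genes, which all come from the same libraries).

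Histone variants differed less. The 10 genes summed to 2994 counts in db/m (184 CPM before TMM scaling) and 3371 in db/db (185 CPM), a ratio of 0.89 (0.847 to 0.935) with TMM scaling and 1 (0.956 to 1.06) with total counts. None of the 8 compared variants was called in either direction, where 7.87% of all compared genes were. With 8 genes, 0 calls is near that background. Ratios were below 1 for 4 and above 1 for 4, against 47.6% below 1 over all compared genes. The median log2 ratio of the 8 variants was -0.13. That median turned to 0.04 with total counts, which raise every log2 ratio by 0.175, including the median of all genes, and to 0.04 when H2afx was left out.

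The linker variant H1f0, which accumulates in cells that have stopped dividing, was the member with most counts in both libraries. It had 1328 counts in db/m and 1234 in db/db, a ratio of 0.734 (0.679 to 0.794), within the 2-fold limit. The other linker variant, H1fx, had 1 count in each library. H1f0 thus lay below 1 like the replication H1 genes, and the counts of those genes per H1f0 count were 0.315 in db/m and 0.172 in db/db (odds ratio 0.546, 0.452 to 0.657).

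Of the 5 compared H2A variants, H2afj alone had an interval that excludes 1. H2afz and H2afv, the H2A.Z genes, whose product marks nucleosomes at promoters, had 97 and 99 counts (ratio 0.807, 0.603 to 1.08) and 55 and 73 counts (1.05, 0.729 to 1.52). H2afy encodes macroH2A, a variant with a large extra domain found in silent chromatin, and had 197 and 257 counts (1.03, 0.853 to 1.25). Its relative H2afy2 had 8 and 3. H2afx, the H2A form phosphorylated at DNA breaks, had 36 and 31 counts (0.681, 0.407 to 1.13). H2afj had 66 and 127 counts and a ratio of 1.52 (1.12 to 2.08), the highest among the compared variants, and would be called higher with a limit of 1.5-fold. The 6 genes summed to 459 and 590 counts, a ratio of 1.02 (0.898 to 1.15). Replication H2A counts per variant H2A count were 0.545 in db/m and 0.307 in db/db (odds ratio 0.563, 0.446 to 0.711).

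Both genes of the replacement H3, which is deposited at active genes outside S phase, encode the same protein, and their ratios lay on opposite sides of 1. H3f3a had 383 counts in db/m and 350 in db/db, a ratio of 0.722 (0.623 to 0.837). H3f3b had 823 and 1196, a ratio of 1.15 (1.05 to 1.26). The count of H3f3b per H3f3a count was 2.15 in db/m and 3.42 in db/db (odds ratio 1.59, 1.34 to 1.89), although neither gene reached 2-fold. The pair summed to 1206 and 1546 counts, a ratio of 1.01 (0.939 to 1.09). Replication H3 counts per count of the pair were 0.28 and 0.185 (odds ratio 0.66, 0.552 to 0.789). The pseudogene H3f3a-ps1, with 10 and 16 counts, and H3f3c, with 25 and 37, resemble these genes, and how reads matching several of them were counted is unknown.

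**Figure D3:**
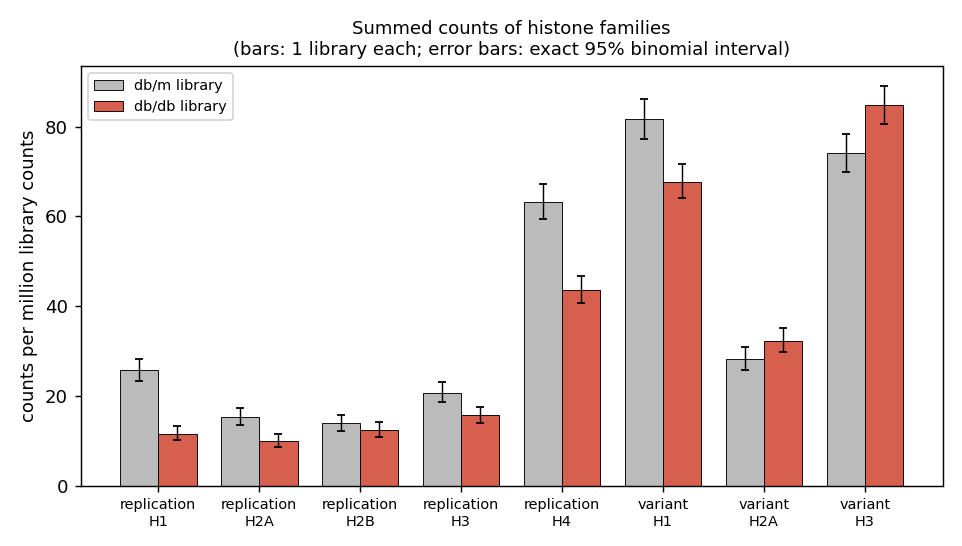
Summed level of each histone family in CPM before TMM scaling, without correction for gene length, in the db/m (grey) and db/db (red) libraries, 1 library per bar, with exact 95% binomial intervals for counting error. Replication H1 stands at 25.7 and 11.6 and replication H4 at 63.2 and 43.6, whereas H3f3a and H3f3b (variant H3) stand at 74.1 and 84.8.

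Replication histones, the group known for messages without poly(A) tails, were also set against the variants inside each library. This removes any effect of scaling between the libraries. There were 0.755 replication histone counts per variant count in db/m and 0.504 in db/db, an odds ratio of 0.668 (0.616 to 0.724). Without H1f0, the variant with most counts, it was 0.586 (0.535 to 0.642), and without the linker histones of both kinds it was 0.629 (0.572 to 0.692). Leaving out H2afx and the 6 cluster genes known to give polyadenylated messages too gave 0.679 (0.622 to 0.741). By family, the odds ratio was also below 1 in the linker histones, in H2A and in H3. That of H3 was 0.956 (0.774 to 1.18) without Hist2h3c1 and Hist2h3c2, with 0.158 and 0.151 counts per count of H3f3a and H3f3b. Of the 191 and 234 replication H3 counts then left, Hist1h3e and Hist1h3f held 142 and 197.

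Cluster genes listed for polyadenylated messages too were then looked at apart, and the cluster genes were also split by annotated span. The 6 genes listed for such messages (Hist1h1c, Hist1h2bc, Hist1h2be, Hist2h2be, Hist3h2a and Hist4h4) summed to 501 and 351 counts, a ratio of 0.554 (0.482 to 0.636), close to the 0.606 (0.564 to 0.651) of the others. The annotated span gave another split, chosen after the values were seen, and whether a long span marks polyadenylated messages was not tested. In RefSeq, 58 of the cluster genes span under 850 bases and 8 span more, 1 gene being unmatched (Hist1h2bc, Hist1h2be, Hist1h2bp, Hist1h2bq, Hist1h2br, Hist1h3e, Hist1h3f and Hist2h2be). The short genes summed to 1950 and 1335 counts, 1.85-fold lower in db/db (1.72 to 1.98). Of 16 compared, 8 were called lower, against 4.04% of all compared genes. The long genes summed to 311 and 365 counts, a ratio of 0.928 (0.795 to 1.08). Of 5 compared, 1 was called lower (Hist1h2be), too few genes to set this share against that of the short ones. The long genes include Hist1h3e and Hist1h3f, the only 2 compared replication histones with ratios above 1 under TMM. Over the variants, the long genes gave an odds ratio of 1.04 (0.886 to 1.23). Short over long, the odds ratio was 0.583 (0.492 to 0.691). How many of the counts came from polyadenylated messages cannot be read from a count per gene.

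**Figure D4:**
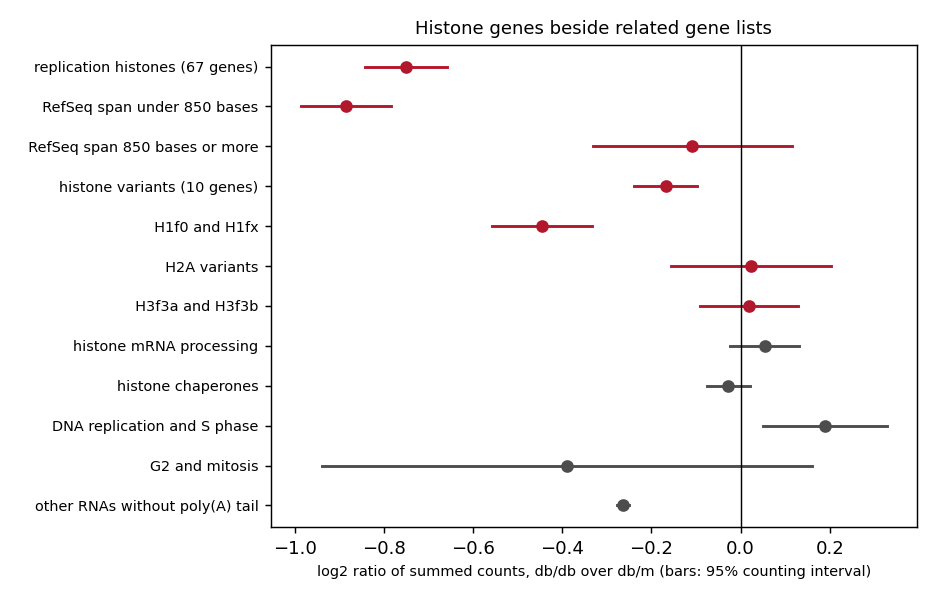
Log2 ratio of summed counts, db/db over db/m, with 95% counting intervals, for the histone groups (red) and for related gene lists (grey). Replication histones with a short RefSeq span lie lowest at -0.89, those with a longer span at -0.11 and the variants at -0.17, while the list of DNA replication and S phase lies above 0.

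Genes of DNA replication, normally active in the same phase of the cell cycle, had a summed ratio above 1, unlike the replication histones. The 42 genes of that list summed to 712 counts in db/m and 1027 in db/db, a ratio of 1.14 (1.04 to 1.26). Of 15 compared, 1 was called higher (Rfc5, a clamp loader subunit, 11 and 40 counts, ratio 2.87, 1.45 to 6.21), 1 was called lower (Tyms, thymidylate synthase, 29 and 16 counts, 2.29-fold, 1.2 to 4.52) and 13 were neither. Over all compared genes 3.83% were called higher and 4.04% lower, so 1 call each way is near the background. Pcna, the sliding clamp of DNA polymerases, had 119 and 158 counts (1.05, 0.822 to 1.34), while the ribonucleotide reductase gene Rrm2 had 61 and 66 (0.855, 0.595 to 1.23). The helicase subunit gene Mcm2 had 39 and 98 counts and stood at 1.99 (1.36 to 2.96), just inside the 2-fold limit. Gins4, with 27 and 66 counts, stood at 1.93 (1.22 to 3.15). Of the 15 compared, 11 had ratios above 1 and 4 below. Mcm2, Gins4 and Rfc5 held much of the excess of the sum over 1, so it should not be read as a rise of the whole list. The median log2 ratio of the 15 was 0.14, against 0.02 over all compared genes. How this list relates to the histone result was not tested. Genes of G2 and mitosis were scarce, with 59 and 57 counts over 24 genes and none above the CPM limit. The proliferation marker Mki67 had 13 and 12 counts.

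Factors that make and degrade histone messages stood near the db/m level. The list had 22 measured genes with 2384 and 3132 counts, a ratio of 1.04 (0.984 to 1.1). Of 20 compared, 1 was called higher and 0 lower, near the 3.83% and 4.04% of all compared genes. The gene called higher was Lsm4 (34 and 87 counts, ratio 2.02, 1.35 to 3.1), a subunit of the Lsm ring that takes part in mRNA decay. Slbp, whose protein binds the stem-loop, had 19 and 33 counts (1.37, 0.758 to 2.56). Upf1, which takes part in degrading histone messages, had 455 and 489 counts (0.849, 0.746 to 0.967). Npat, the activator of histone gene transcription, had 101 and 136 (1.06, 0.817 to 1.39), and Sympk, the scaffold of the cleavage complex, 502 and 747 (1.18, 1.05 to 1.32). Of 21 compared histone chaperones, 0 were called higher and 1 lower, Anp32e, which removes H2A.Z from chromatin (148 and 89 counts, 2.1-fold, 1.61 to 2.77). These numbers of calls are likewise near the shares over all compared genes. Npm1, the chaperone with most counts, had 978 and 939 (0.759, 0.693 to 0.831), and Ubn2, a partner of HIRA, 732 and 992 (1.07, 0.973 to 1.18). Hira, which deposits the replacement H3, had 171 and 255 counts (1.18, 0.967 to 1.44).

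Other RNAs without a poly(A) tail were lower to a smaller extent. The 12 genes of that list summed to 96726 and 101919 counts, a ratio of 0.833 (0.825 to 0.84). None of the 7 compared was called, where 7.87% of all compared genes were called in either direction. The nuclear RNAs Malat1 and Rn7sk stood at 0.782 (0.771 to 0.793) and 0.798 (0.779 to 0.818). Rpph1, the RNA of ribonuclease P, stood at 0.894 (0.874 to 0.915). Rmrp, the RNA of an RNA-processing enzyme, stood lower at 0.525 (0.501 to 0.549), and Neat1, which also has a polyadenylated form, at 0.517 (0.486 to 0.551). Rn7s2, a signal recognition particle RNA, stood at 1.06 (1.04 to 1.09). These RNAs therefore did not share 1 ratio, and their part in the histone result was not tested.

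Cell type markers also differed between the libraries. Summed over each list, acinar markers stood at 0.845 (0.844 to 0.846), duct markers at 0.789 (0.72 to 0.865), beta cell markers at 1.01 (0.992 to 1.03) although 5 of the 7 were called lower, alpha cell markers at 3.62 (3.37 to 3.9), and delta and PP cell markers at 6.22 (5.37 to 7.24). Macrophage markers stood at 1.94 (1.39 to 2.74), stellate and fibroblast markers at 1.44 (1.1 to 1.89), endothelial markers at 0.705 (0.554 to 0.897) and lymphoid markers at 0.649 (0.43 to 0.976). Several lists held compared members on both sides of 1. Above and below 1 were 2 and 8 acinar, 2 and 3 duct and 1 and 3 endothelial markers. For delta and PP cells these numbers were 2 and 1, as for stellate cells and fibroblasts. Of the macrophage markers only Lyz2 (33 and 95 counts) was compared. Under the CPM limit, Cd68 had 12 and 2 counts (ratio 0.132, 0.0143 to 0.592). Csf1r had 3 and 18 (4.74, 1.38 to 25.1) and Cd14 had 3 and 10 (2.63, 0.678 to 14.9). Called lower were the acinar Amy2a5, the beta cell genes Ins1, Slc2a2, Ucn3, Nkx6-1 and Mafa and the endothelial Plvap and Kdr, from 2.05-fold (Kdr) to 10.4-fold (Mafa). Called higher were the hormone genes Gcg, Ppy and Sst and the macrophage gene Lyz2, with ratios from 2.28 (Lyz2) to 8.79 (Sst). Among lymphoid markers, Cd3e and Cd3g had at most 1 count in a library and Nkg7 had 0 counts in both, and the erythroid list had 12 and 0 counts. The part of these cell types in the histone counts was not tested.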

How the data were processed

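The table deposited by the authors holds raw, whole-number counts per gene with a gene class, 1 column per library. Per the submitters' processing notes, HISAT2 2.0.4 was used and mm10 and GRCm38 are named as builds. How reads were assigned to genes, by which program, with or without strand, and what was done with reads matching several genes, was not given in the sources used here. Both libraries were grouped by title.

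Counts were scaled with TMM from edgeR 4.0.16 (R 4.3.3). Ratios carry exact Clopper-Pearson 95% intervals of the db/db share of the counts, converted with the scaled sizes, and odds ratios carry exact conditional intervals (scipy 1.17.1). Reads copied by PCR are not separate molecules, an error these intervals leave out. A gene was compared at a mean of at least 1 unscaled CPM, which left 10300 genes, and called at a ratio of at least 2-fold with an interval excluding 1. The scripts were tested on simulated data. Annotation and upstream sequences came from RefSeq (GRCm38.p6), matched through older symbols for 76 of 77 members, 70 of them with an upstream window. Level per length used the annotated span.

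By the naming rule, all variants, all called members, the 3 replication genes with most counts in each family and, of each list, called genes and up to 3 others with most counts were named. Further genes (such as Slbp, Npat, Hira, Mki67, Rn7sk, Neat1 and Rmrp) were picked with their values known. The members and lists were chosen with earlier results of these data known. Alternatives tried were DESeq2 1.42.0 size factors, total counts with and without acinar markers, other filters, fold limits and intervals, and other sets of members.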

Additional observations from a re-analysis of the deposited data

How the results depend on the processing

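The count of 9 replication histones called lower was also 9 with each other scaling, and 13 were called lower both without a filter on low counts (of 59 genes with counts, against 4.31% of all genes with counts) and with a limit of 1.5-fold (of 21, against 8.87%). It was 1 of 4 genes with at least 10 CPM, 0 with a limit of 4-fold, 2 with an interval lying beyond 2-fold and 5 with an interval at the Bonferroni level, where 2.29%, 0.738%, 1.33% and 2.07% of all compared genes were called lower. The count of variants called was 0 except with a limit of 1.5-fold, where it was 1 of 8 (H2afj, higher), against 8.63% of all compared genes called higher. The scaled sum of replication histones moved from 0.594 to 0.671 with total counts and 0.645 with total counts without acinar marker genes, and to 0.541 and 0.928 for genes of short and long RefSeq span. The sum of variants, 0.89, was 0.966 without acinar markers in the totals, and it turned to 1.0047 with total counts and to 1.01 without H1f0, so no direction should be read from it. The odds ratio of replication histones over variants, 0.668, was 0.586 without H1f0, 0.608 with short cluster genes alone and 1.04 with long ones alone, the last 2 added after the data were seen. The median log2 ratio of replication histones lay between -0.80 and -0.34 and that of variants between -0.32 and 0.04 over the alternatives run. Cluster genes could not be selected by the stem-loop in their transcript, because no transcript sequence was used here, so that alternative was not run. No paired analysis was possible because each group has 1 library. Of the 67 cluster genes, 46 lie under 1 CPM and were not compared singly at this depth.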

Other observations

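By position, 53 of the 54 Hist1 genes of chromosome 13 fall in 2 blocks, the other being unmatched in RefSeq. The block of 22 genes nearer the start of the chromosome, from Hist1h2bl to Hist1h2bj, summed to 158 counts in db/m and 101 in db/db, a ratio of 0.505 (95% counting interval 0.39 to 0.653), and Hist1h4n gave 105 and 46 of these counts. The other 31 genes, from Hist1h4h onward, summed to 1224 and 1022 counts, a ratio of 0.66 (0.607 to 0.718). The odds ratio of the second block over the first was 1.31 (0.997 to 1.72), an interval that includes 1. The 10 Hist2 genes of chromosome 3 summed to 771 and 505 counts, a ratio of 0.518 (0.462 to 0.58), against 0.642 (0.593 to 0.695) for the Hist1 genes (odds ratio 0.806, 0.701 to 0.927). Blocks and loci were set against each other with their values known.

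Of 7 histone genes outside the member rule that were in the table, H3f3c had 25 and 37 counts, the centromeric Cenpa had 2 and 0, and 5 had 0 counts in both libraries.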
